A study of Mus musculus with 6 samples.

Results

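The genes described here are the collagens, the laminin chains, the integrins and 7 further glycoproteins of the extracellular matrix, the protein meshwork on which cells rest and to which they attach. Members were chosen by name among the protein-coding rows of the count table: all collagen chains, all laminin alpha, beta and gamma chains, all integrin alpha and beta chains, and Fn1, Nid1, Nid2, Hspg2, Agrn, Hmcn1 and Hmcn2. By this rule, 90 of the 52636 rows were members. These are 44 collagens, 11 laminin chains, 28 integrins and the 7 glycoproteins.

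RNA was sequenced from embryoid bodies (EBs), aggregates of mouse embryonic stem cells (ESCs) that were formed in hanging drops, plated on gelatin without leukemia inhibitory factor and harvested on day 3 of differentiation. WT EBs came from the parental E14 line (3 samples). Tnfaip2-/- EBs came from an E14 clone in which CRISPR-Cas9 editing had placed a premature stop codon in Tnfaip2 (3 samples), and both groups received the same culture and the same time of differentiation. The study asked how loss of Tnfaip2 affects differentiation. The edited line is 1 clone and was compared with its parent, so the effect of the edit cannot be told apart from other differences between these lines. Replicates are separate cultures of a line, and p-values measure the spread between cultures. WT samples held 22987433, 22489903 and 23804489 counts, and Tnfaip2-/- samples held 22480962, 21765931 and 21986960 counts. Values per gene are given as counts or as CPM, which are counts scaled by library size with edgeR's TMM factors, and SE stands for standard error. Tnfaip2 itself had 7, 4 and 7 counts in WT EBs and 0, 2 and 2 counts in Tnfaip2-/- EBs, so that its sum was 4.39-fold higher in WT EBs (95% interval from counting error alone 1.44 to 17.8). The edit is a frameshift, which counts per gene do not read directly.

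Epithelial cells sit on a basement membrane, a thin sheet in which a laminin network and a collagen IV network are linked by nidogens and heparan sulfate proteoglycans. Laminins are trimers of an alpha, a beta and a gamma chain, collagens are trimers with a triple helix, and integrins are receptors of an alpha and a beta chain that bind these matrix proteins and connect them to the cytoskeleton. In EBs and in the early embryo, endoderm lays down the earliest basement membrane, and the epiblast polarises on it.

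Together the members took between 0.286% and 0.307% of all counts in WT EBs and between 0.309% and 0.315% in Tnfaip2-/- EBs. Of the 90 members, 67 passed the filter on low counts and were tested, and 23 did not. Of these 67 genes, 53 were called, which means that their adjusted p lay under 0.05 with edgeR's quasi-likelihood test, against 67.7% of all 17849 genes tested. Tnfaip2-/- EBs showed higher levels for 34 of the 67 (34.0% of all genes tested) and lower levels for 19 (33.7% of all genes tested). The median log2 fold change of the tested members was 0.40, beside 0.00297 for all genes tested, and the median size of the change was 0.70 beside 0.30. A change of at least 2-fold was called for 26 members, against 12% of all genes tested. In 53 members the CPM of the groups did not overlap, against 69.4% of all genes tested. A stricter test, which asks for a change beyond 1.5-fold, was passed by 30 members, against 15.7% of all genes tested. By family, 14 collagens were higher and 9 lower among 32 tested, 7 laminin chains were higher and 2 lower among 10, 9 integrins were higher and 6 lower among 18, and 4 of the 7 other glycoproteins were higher and 2 lower. In these bulk samples, fewer cells of a type and less RNA per cell cannot be told apart.

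**Figure D1:**
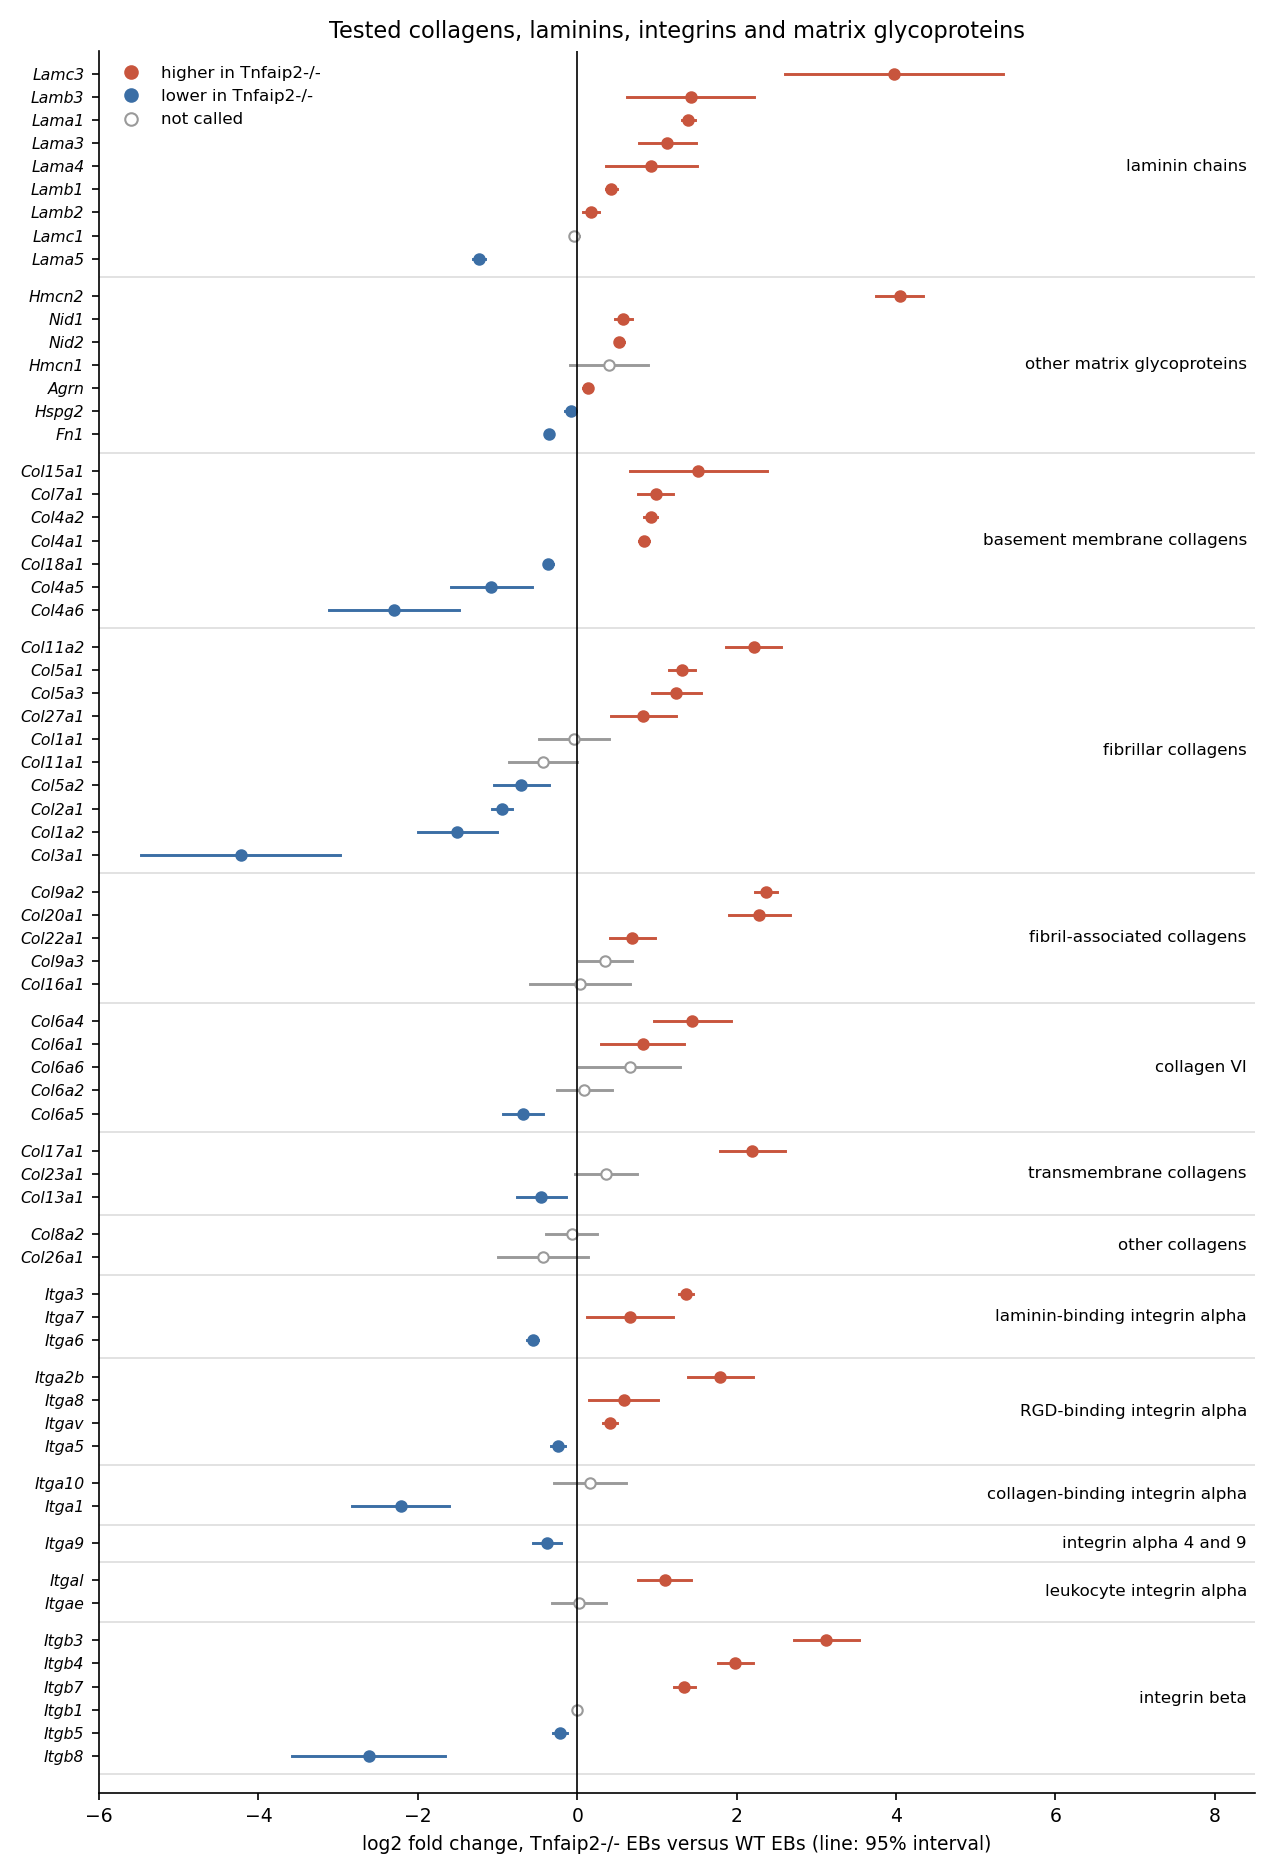
Log2 fold change of 66 of the tested members in Tnfaip2-/- EBs versus WT EBs, grouped by role, with the 95% interval as a line. Filled red points were higher (34), filled blue points lower (18) and open points not called (14); every role group with at least 3 tested members, other than the fibril-associated collagens, holds changes in both directions. Lamc3 and Col3a1 had 0 to 2 counts in each sample of a group, and their fitted position depends on the prior count.

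Alpha chains carry the parts of a laminin that bind cells, and the main result among the laminins was an exchange of the leading alpha chain. Lama1 (ENSMUSG00000032796, chr17:67697259-67822647, forward strand, GRCm38) encodes the alpha chain of the earliest embryonic basement membranes. Its level was 28.9, 29.6 and 27.8 CPM in WT EBs and 75.1, 75.9 and 75.7 CPM in Tnfaip2-/- EBs. Every Tnfaip2-/- sample lay far above every WT sample, with a log2 fold change of 1.39 (SE 0.0421, adjusted p = 5.21e-31 in edgeR's quasi-likelihood test). Lama5 (ENSMUSG00000015647, chr2:180176373-180225859, reverse strand), the alpha chain of most later epithelial and vascular basement membranes, went the other way. It had 146, 151 and 135 CPM in WT EBs and 62.1, 60.1 and 61.8 CPM in Tnfaip2-/- EBs. The groups did not overlap, and Lama5 showed a log2 fold change of -1.23 (SE 0.0365, adjusted p = 2.42e-31 in edgeR's quasi-likelihood test). Within each sample, the ratio of Lama1 to Lama5 in counts per exon base was 0.233, 0.23 and 0.242 in WT EBs and 1.42, 1.48 and 1.44 in Tnfaip2-/- EBs. Lama5 therefore led in all WT samples and Lama1 in all Tnfaip2-/- samples, a difference of 2.62 on the log2 scale (exact permutation p = 0.1, the smallest that 3 against 3 allows). Of the summed counts per exon base of the laminin alpha chains, Lama1 took 18.7%, 18.5% and 19.2% in WT EBs and 57.0%, 58.1% and 57.4% in Tnfaip2-/- EBs. Lama5 took 80.3%, 80.5% and 79.3% and 40.05%, 39.2% and 39.9%, respectively, and the remaining alpha chains together made up only a small share in every sample.

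The beta and gamma chains that assemble with these alpha chains moved less. Lamb1 (ENSMUSG00000002900, chr12:31265234-31329644, forward strand), the beta chain of most embryonic laminins, had 87.9, 89.7 and 81.4 CPM in WT EBs and 117, 117 and 114 CPM in Tnfaip2-/- EBs. All Tnfaip2-/- samples were higher, with a log2 fold change of 0.43 (SE 0.0342, adjusted p = 2.99e-15 in edgeR's quasi-likelihood test). Lamb2, an alternative beta chain known from neuromuscular and kidney basement membranes, had 35.0, 34.4 and 30.8 CPM in WT EBs and 37.5, 36.3 and 39.4 CPM in Tnfaip2-/- EBs. Its groups were close but did not overlap (log2 fold change 0.18, adjusted p = 0.00196 in edgeR's quasi-likelihood test). That call was lost without WT replicate 3 (log2 fold change 0.11, adjusted p = 0.0676 in edgeR's quasi-likelihood test; range over the alternatives that test against no change 0.0014 to 0.0676). The Lamb1 to Lamb2 ratio per exon base was 1.54, 1.60 and 1.62 in WT EBs and 1.92, 1.97 and 1.78 in Tnfaip2-/- EBs, without overlap (exact permutation p = 0.1). Lamc1 (ENSMUSG00000026478, chr1:153218922-153332786, reverse strand), the gamma chain that nearly all laminins share, had 190.4, 197 and 187 CPM in WT EBs and 188, 185 and 187 CPM in Tnfaip2-/- EBs. These values overlapped, and Lamc1 did not pass the test (log2 fold change -0.04, adjusted p = 0.263 in edgeR's quasi-likelihood test). The laminin genes thus kept a common gamma chain at a level that did not differ beyond its spread, while the alpha chains exchanged their order.

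The laminin chains that follow stayed below a mean of 3 CPM in either group. Lama3 and Lamb3 encode chains of a laminin of skin and other epithelia. Lama3 had 26, 26 and 41 counts in WT EBs and 70, 64 and 65 counts in Tnfaip2-/- EBs, with a log2 fold change of 1.13 (SE 0.18, adjusted p = 3.63e-07 in edgeR's quasi-likelihood test). Lamb3 had 2, 8 and 7 counts in WT EBs and 20, 12 and 13 in Tnfaip2-/- EBs (log2 fold change 1.42, adjusted p = 0.0016 in edgeR's quasi-likelihood test). Both were higher in each Tnfaip2-/- sample. Lama4, an alpha chain of blood vessels and muscle, had 13, 10 and 13 counts in WT EBs and 25, 21 and 21 counts in Tnfaip2-/- EBs. It was higher in each Tnfaip2-/- sample (log2 fold change 0.93, adjusted p = 0.0038 in edgeR's quasi-likelihood test), but not past the threshold with DESeq2 (adjusted p = 0.0726; range over the alternatives that test against no change 0.00387 to 0.0726). Lamc3 had 2, 0 and 0 counts in WT EBs and 15, 10 and 11 counts in Tnfaip2-/- EBs. Its summed counts were 18.5-fold higher in Tnfaip2-/- EBs, with a 95% interval of 4.75 to 158 that covers counting error only. All counts in WT EBs came from WT replicate 1, and the fitted log2 fold change was 3.97 with and 6.61 without that library. Lama2, the alpha chain of muscle, did not pass the filter, at 2, 4 and 5 counts in WT EBs and 9, 4 and 6 in Tnfaip2-/- EBs.

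**Figure D2:**
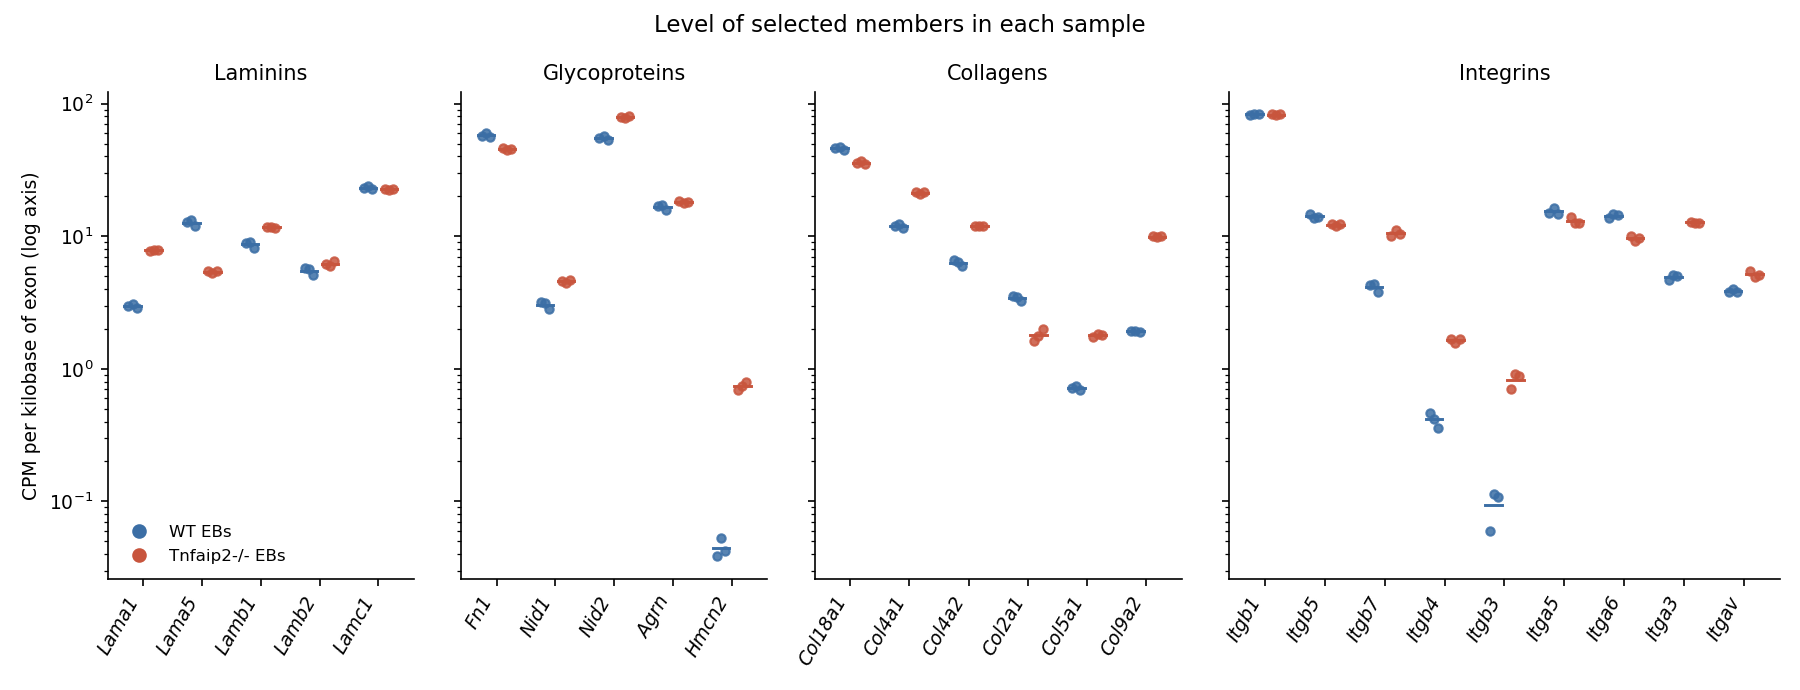
Level of selected members in each of the 6 samples, in CPM per kilobase of exon on a log axis; points are samples and the short line is the mean of 3. Lama1 and Lama5 exchange their order between the groups, Lamc1 and Itgb1 lie at the same height in both, and Hmcn2 and Itgb3 show the widest gaps among the genes drawn.

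Among the other glycoproteins, nidogens and hemicentin 2 were higher and fibronectin was lower in Tnfaip2-/- EBs. Fn1 (ENSMUSG00000026193, chr1:71585520-71653200, reverse strand) encodes fibronectin, the matrix protein that cells bind through its RGD sequence, and had the highest CPM of all members. It had 670.1, 697 and 652 CPM in WT EBs and 537, 520.2 and 527 CPM in Tnfaip2-/- EBs. The groups did not overlap, with a log2 fold change of -0.35 (SE 0.0248, adjusted p = 5.45e-17 in edgeR's quasi-likelihood test). Nid1 and Nid2 encode nidogens, which bridge the laminin and collagen IV networks. Nid2 had 283, 293 and 273 CPM in WT EBs and 407, 401 and 417 CPM in Tnfaip2-/- EBs, with a log2 fold change of 0.53 (SE 0.0263, adjusted p = 1.46e-22 in edgeR's quasi-likelihood test). Nid1 had 22.1, 21.7 and 19.7 CPM in WT EBs and 31.8, 30.8 and 32.2 CPM in Tnfaip2-/- EBs (log2 fold change 0.58, adjusted p = 6.54e-13 in edgeR's quasi-likelihood test). Both nidogens rose, and their ratio per exon base overlapped between the groups (exact permutation p = 0.3). Nid2 was the more abundant of the pair, at 54.7 ± 1.87 CPM per kilobase of exon in WT EBs against 3.05 ± 0.186 for Nid1 (mean ± SD, n = 3). About 8.45% of the exon bases of Nid2 overlap Rtraf on the opposite strand, and the counts do not separate strands.

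Hmcn2 (ENSMUSG00000055632, chr2:31314415-31460738, forward strand) encodes a hemicentin, a very long matrix protein of cell junctions and basement membranes. It had 14, 19 and 16 counts in WT EBs and 253, 261 and 281 counts in Tnfaip2-/- EBs. No other member with a mean of at least 1 CPM changed as much, with a log2 fold change of 4.05 (SE 0.146, adjusted p = 6.47e-28 in edgeR's quasi-likelihood test). Its paralogue Hmcn1 had 27, 15 and 21 counts in WT EBs and 29, 27 and 25 counts in Tnfaip2-/- EBs, which overlapped (log2 fold change 0.40, adjusted p = 0.147 in edgeR's quasi-likelihood test). Agrn, the heparan sulfate proteoglycan agrin that gathers receptors at synapses, had 156, 158 and 147 CPM in WT EBs and 170.1, 166 and 169 CPM in Tnfaip2-/- EBs. This difference was small but without overlap, with a log2 fold change of 0.13 (SE 0.0298, adjusted p = 0.000164 in edgeR's quasi-likelihood test), and the log2 fold change without WT replicate 3 was 0.09. Hspg2 encodes perlecan, the main heparan sulfate proteoglycan of basement membranes, and had 134, 136 and 120.1 CPM in WT EBs and 123, 120.3 and 126 CPM in Tnfaip2-/- EBs. These values overlapped, and the call (log2 fold change -0.08, adjusted p = 0.0413 in edgeR's quasi-likelihood test) was lost under 7 alternatives, among them DESeq2, the replicate block and the fits without WT replicate 1 or 2 or Tnfaip2-/- replicate 1 or 2, while the log2 fold change was -0.14 without WT replicate 3 (range of adjusted p over the alternatives that test against no change 0.000212 to 0.207).

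Collagen IV forms the network of the basement membrane, and its main trimer joins chains from Col4a1 and Col4a2. These genes lie head to head on chromosome 8 and share their start region, and both rose by nearly the same factor. The 30 bases that span both starts (GRCm38.p6, forward strand, RefSeq) are shown because the first bases of this pair overlap there on opposite strands. In capitals are the 22 bases from the start of Col4a2 (11312805) to that of Col4a1 (11312826), which belong to both genes.
chr8:11312801-11312830: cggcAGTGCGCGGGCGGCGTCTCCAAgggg
Col4a1 (ENSMUSG00000031502, chr8:11198423-11312826, reverse strand) had 89.6, 92.1 and 85.6 CPM in WT EBs and 160.3, 156 and 160.1 CPM in Tnfaip2-/- EBs. Col4a2 (ENSMUSG00000031503, chr8:11312805-11449287, forward strand) had 43.5, 42.2 and 39.7 CPM in WT EBs and 79.6, 78.5 and 79.2 CPM in Tnfaip2-/- EBs. All Tnfaip2-/- samples were above all WT samples for both chains. Col4a1 showed a log2 fold change of 0.84 (SE 0.0316, adjusted p = 3.84e-27 in edgeR's quasi-likelihood test), and Col4a2 showed a log2 fold change of 0.92 (SE 0.0398, adjusted p = 6.46e-25 in edgeR's quasi-likelihood test). Their ratio per exon base was 1.82, 1.94 and 1.91 in WT EBs and 1.79, 1.77 and 1.79 in Tnfaip2-/- EBs. The ratio was slightly lower in every Tnfaip2-/- sample, with a log2 difference of -0.09 (exact permutation p = 0.1).

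Other collagen IV chains moved down. Col4a5 (ENSMUSG00000031274, chrX:141475385-141689234, forward strand) and Col4a6 (ENSMUSG00000031273, chrX:141165403-141474076, reverse strand) also lie head to head, 1308 bases apart on the X chromosome, and encode chains of collagen IV in kidney, smooth muscle and skin basement membranes. The bases before their starts are printed because these neighbours fell together, 5′ to 3′ on the strand of each gene and from the window start to the nearest annotated exon (GRCm38.p6, RefSeq promoter windows). Capitals mark CCAAT and GGGCGG on either strand.
Col4a6 (chrX:141474077-141474326, reverse strand): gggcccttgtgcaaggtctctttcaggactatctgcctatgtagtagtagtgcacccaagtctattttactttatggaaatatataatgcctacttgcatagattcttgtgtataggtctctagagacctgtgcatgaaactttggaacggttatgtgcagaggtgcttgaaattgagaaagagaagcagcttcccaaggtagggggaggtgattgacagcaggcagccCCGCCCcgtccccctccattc
Col4a5 (chrX:141475169-141475384, forward strand): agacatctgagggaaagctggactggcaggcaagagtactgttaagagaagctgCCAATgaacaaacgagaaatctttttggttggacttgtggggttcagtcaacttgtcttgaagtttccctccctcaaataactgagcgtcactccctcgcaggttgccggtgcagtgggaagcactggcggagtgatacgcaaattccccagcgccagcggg
The Col4a6 stretch of 250 bases held GGGCGG in 1 place and no CCAAT, and the Col4a5 stretch of 216 bases held CCAAT in 1 place and no GGGCGG. Over 32817 promoter windows, GGGCGG occurs in the same 250 bases of 32.7% and CCAAT in the same 216 bases of 30.5%. Promoter windows matched 65 of the 90 members (72 windows), of which 50% held GGGCGG in the 250 bases and 22.2% held CCAAT in the 216 bases. Col4a5 had 28, 31 and 39 counts in WT EBs and 17, 11 and 17 counts in Tnfaip2-/- EBs, with a log2 fold change of -1.08 (SE 0.252, adjusted p = 0.00021 in edgeR's quasi-likelihood test). Col4a6 had 16, 23 and 18 counts in WT EBs and 3, 2 and 6 counts in Tnfaip2-/- EBs (log2 fold change -2.30, adjusted p = 2.74e-06 in edgeR's quasi-likelihood test). In either gene, each Tnfaip2-/- sample was below each WT sample. Col4a3 and Col4a4, the remaining chains, had between 0 and 6 counts in each sample and were not tested.

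Col18a1 is a basement membrane collagen with heparan sulfate chains and the source of endostatin. It was the most abundant collagen in every sample, at 324, 333 and 314 CPM in WT EBs and 249.6, 259 and 248 CPM in Tnfaip2-/- EBs. The groups did not overlap, with a log2 fold change of -0.36 (SE 0.0267, adjusted p = 2.47e-16 in edgeR's quasi-likelihood test). Of the summed counts per exon base of all collagens, Col18a1 took 59.7%, 59.97% and 60.3% in WT EBs and 39.2%, 39.9% and 38.7% in Tnfaip2-/- EBs. Col4a1 took 15.5%, 15.6% and 15.5% in WT EBs and 23.7%, 22.7% and 23.5% in Tnfaip2-/- EBs. The share of Col18a1 was thus smaller in every Tnfaip2-/- sample, while the largest gains in mean share were those of Col9a2, Col4a1 and Col4a2. Col7a1, which forms the anchoring fibrils beneath epithelia, had 103, 84 and 86 counts in WT EBs and 185, 167 and 175 counts in Tnfaip2-/- EBs, with a log2 fold change of 0.99 (SE 0.108, adjusted p = 5.34e-11 in edgeR's quasi-likelihood test). Col15a1, a relative of Col18a1, had 5, 6 and 2 counts in WT EBs and 13, 12 and 12 counts in Tnfaip2-/- EBs (log2 fold change 1.52, adjusted p = 0.00165 in edgeR's quasi-likelihood test). Altogether 4 of 7 tested basement membrane collagens were higher and 3 lower, where 34.0% of all genes tested were higher and 33.7% lower.

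The fibrillar collagens build the banded fibres of connective tissue, and 4 of the 10 tested were higher and 4 lower. These shares lie near those of all genes tested, 34.0% higher and 33.7% lower. Col2a1, the collagen of cartilage and notochord, had the highest CPM of them, with 32.9, 32.4 and 30.0 CPM in WT EBs and 15.0, 16.3 and 18.3 CPM in Tnfaip2-/- EBs. All Tnfaip2-/- samples were lower, with a log2 fold change of -0.94 (SE 0.0611, adjusted p = 2.35e-18 in edgeR's quasi-likelihood test). Col5a1, Col5a3 and Col11a2 encode minor chains that set the diameter of fibrils. Col5a1 had 6.04, 6.30 and 5.92 CPM in WT EBs and 14.7, 15.5 and 15.3 CPM in Tnfaip2-/- EBs, with a log2 fold change of 1.32 (SE 0.0822, adjusted p = 5.89e-19 in edgeR's quasi-likelihood test). Col5a3 had 42, 34 and 46 counts in WT EBs and 101, 84 and 97 counts in Tnfaip2-/- EBs (log2 fold change 1.24, adjusted p = 9.11e-10 in edgeR's quasi-likelihood test). Col11a2 had 23, 21 and 27 counts in WT EBs and 105, 123 and 94 counts in Tnfaip2-/- EBs (log2 fold change 2.21, adjusted p = 1.24e-15 in edgeR's quasi-likelihood test). These 3 genes were higher in every Tnfaip2-/- sample, whereas Col5a2, the usual partner of Col5a1, had 57, 74 and 73 counts in WT EBs and 51, 39 and 32 in Tnfaip2-/- EBs (log2 fold change -0.70, adjusted p = 0.000377 in edgeR's quasi-likelihood test).

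Col1a1 and Col1a2 encode the chains of collagen I, the main collagen of bone, skin and tendon, and both were low. Col1a1 had 26, 41 and 32 counts in WT EBs and 24, 34 and 36 counts in Tnfaip2-/- EBs. Col1a2 had 38, 36 and 43 counts in WT EBs and 9, 14 and 17 counts in Tnfaip2-/- EBs. Col1a1 overlapped between the groups (log2 fold change -0.04, adjusted p = 0.889 in edgeR's quasi-likelihood test), while Col1a2 was lower in every Tnfaip2-/- sample, with a log2 fold change of -1.50 (SE 0.249, adjusted p = 8.4e-07 in edgeR's quasi-likelihood test). The ratio of Col1a1 to Col1a2 per exon base was 1.30, 2.16 and 1.41 in WT EBs and 5.05, 4.598 and 4.01 in Tnfaip2-/- EBs, so that the chains of this trimer did not change in step (exact permutation p = 0.1). Col3a1, which accompanies collagen I in soft tissues, had 12, 21 and 12 counts in WT EBs and 1, 1 and 0 counts in Tnfaip2-/- EBs. Its summed counts were 21.9-fold higher in WT EBs (95% interval from counting error 5.73 to 187). Col27a1 was higher (log2 fold change 0.83, adjusted p = 0.0004 in edgeR's quasi-likelihood test), Col11a1 had 40, 39 and 40 counts in WT EBs and 29, 37 and 20 in Tnfaip2-/- EBs and did not pass the test (log2 fold change -0.43, adjusted p = 0.0678 in edgeR's quasi-likelihood test), and Col24a1 had between 3 and 8 counts in each sample. Col11a1 passed only without Tnfaip2-/- replicate 2 (adjusted p = 0.0142; range over the alternatives that test against no change 0.0142 to 0.356).

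Fibril-associated collagens sit on the surface of fibrils, and 3 of the 5 that passed the filter were higher and none lower. Among all genes tested, 34.0% were higher and 33.7% lower, and 5 genes are few to set beside that. Col9a2, a chain of collagen IX that coats cartilage fibrils, had 6.001, 5.98 and 5.87 CPM in WT EBs and 30.8, 30.4 and 31.0 CPM in Tnfaip2-/- EBs. The gap between the groups was many times the spread within them, with a log2 fold change of 2.37 (SE 0.0702, adjusted p = 2.49e-31 in edgeR's quasi-likelihood test). Its share of collagen counts per exon base went from 2.51%, 2.45% and 2.56% in WT EBs to 10.96%, 10.6% and 11.01% in Tnfaip2-/- EBs, while that of Col2a1 went from 4.605%, 4.44% and 4.38% to 1.79%, 1.91% and 2.17%. These genes, whose products meet in cartilage fibrils, thus moved in opposite directions. Of the other chains of collagen IX, Col9a3 had 42, 61 and 56 counts in WT EBs and 58, 76 and 64 counts in Tnfaip2-/- EBs, which overlapped (log2 fold change 0.35, adjusted p = 0.0522 in edgeR's quasi-likelihood test), and Col9a1 had 5, 6 and 5 counts in WT EBs and 11, 6 and 6 in Tnfaip2-/- EBs, under the filter. Col9a3 passed the test under 4 alternatives, among them the replicate block and the fits without WT replicate 2 (adjusted p = 0.0216) or Tnfaip2-/- replicate 1 (adjusted p = 0.0241), with a range over the alternatives that test against no change of 0.0216 to 0.304. Col20a1 had 19, 22 and 16 counts in WT EBs and 76, 101 and 95 counts in Tnfaip2-/- EBs, with a log2 fold change of 2.28 (SE 0.191, adjusted p = 1.38e-14 in edgeR's quasi-likelihood test). Col22a1, known from tissue junctions such as that of muscle and tendon, had 58, 52 and 67 counts in WT EBs and 92, 96 and 91 counts in Tnfaip2-/- EBs (log2 fold change 0.69, adjusted p = 2.22e-05 in edgeR's quasi-likelihood test). Both were higher in each Tnfaip2-/- sample. Col16a1 did not pass the test (log2 fold change 0.04, adjusted p = 0.923 in edgeR's quasi-likelihood test), and Col12a1 and Col19a1 had between 0 and 10 counts in each sample, under the filter. Col14a1, also under the filter, had 17, 6 and 9 counts in WT EBs and 5, 0 and 0 counts in Tnfaip2-/- EBs. Its groups did not overlap in counts, and it was called lower with no filter (adjusted p = 0.00289) and with DESeq2 (adjusted p = 0.0137).

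Collagen VI forms beaded filaments around cells, and its genes moved in different directions. Col6a5 had 114, 105 and 113 counts in WT EBs and 70, 64 and 68 counts in Tnfaip2-/- EBs, with a log2 fold change of -0.68 (SE 0.127, adjusted p = 7.58e-06 in edgeR's quasi-likelihood test). Its neighbour Col6a4, 28810 bases away on chromosome 9, had 19, 14 and 14 counts in WT EBs and 53, 34 and 38 counts in Tnfaip2-/- EBs, with a log2 fold change of 1.44 (SE 0.24, adjusted p = 9.28e-07 in edgeR's quasi-likelihood test). Neither gene overlapped between the groups. Col6a1 had 16, 25 and 11 counts in WT EBs and 27, 31 and 32 counts in Tnfaip2-/- EBs (log2 fold change 0.82, adjusted p = 0.00469 in edgeR's quasi-likelihood test). That call was lost with DESeq2 (adjusted p = 0.0758) and without WT replicate 3 (log2 fold change 0.55, adjusted p = 0.0727), and the adjusted p over the alternatives that test against no change ranged from 0.000539 to 0.0758. Col6a2, the usual partner of Col6a1, had 57, 60 and 52 counts in WT EBs and 44, 56 and 75 counts in Tnfaip2-/- EBs, which overlapped (log2 fold change 0.09, adjusted p = 0.663 in edgeR's quasi-likelihood test). Col6a6 did not pass the test (log2 fold change 0.66, adjusted p = 0.0598 in edgeR's quasi-likelihood test), although it did without WT replicate 2 (adjusted p = 0.0326) or Tnfaip2-/- replicate 1 (adjusted p = 0.0214; range over the alternatives that test against no change 0.0214 to 0.281), and Col6a3 had between 1 and 4 counts in each sample.

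The transmembrane collagens span the cell membrane. Col17a1, a component of the hemidesmosomes that fix epithelia to the basement membrane, had 12, 21 and 17 counts in WT EBs and 80, 76 and 69 counts in Tnfaip2-/- EBs. It was higher in each Tnfaip2-/- sample, with a log2 fold change of 2.20 (SE 0.201, adjusted p = 2.18e-13 in edgeR's quasi-likelihood test). Col13a1, found at cell adhesion sites, had 67, 74 and 86 counts in WT EBs and 53, 64 and 45 counts in Tnfaip2-/- EBs (log2 fold change -0.45, adjusted p = 0.00966 in edgeR's quasi-likelihood test). The Col13a1 call was lost with DESeq2 (adjusted p = 0.0965), without WT replicate 3 (adjusted p = 0.0583) and without Tnfaip2-/- replicate 3 (adjusted p = 0.0691), with a range over the alternatives that test against no change of 0.00261 to 0.0965. Col23a1 had 36, 44 and 28 counts in WT EBs and 45, 39 and 51 counts in Tnfaip2-/- EBs and did not pass the test (log2 fold change 0.36, adjusted p = 0.0994 in edgeR's quasi-likelihood test), other than without WT replicate 2 (adjusted p = 0.0302; range 0.0302 to 0.471). Col25a1 had between 0 and 5 counts in each sample. Of the 5 remaining collagens, 2 passed the filter. Col8a2 had 73, 60 and 53 counts in WT EBs and 59, 62 and 52 counts in Tnfaip2-/- EBs (log2 fold change -0.07, adjusted p = 0.721 in edgeR's quasi-likelihood test). Col26a1 had 21, 19 and 21 counts in WT EBs and 12, 18 and 14 counts in Tnfaip2-/- EBs (log2 fold change -0.43, adjusted p = 0.17 in edgeR's quasi-likelihood test). Neither passed the test, although the groups of Col26a1 did not overlap. Col28a1 had 2, 0 and 0 counts in WT EBs and 11, 9 and 2 counts in Tnfaip2-/- EBs, a sum 11.3-fold higher (95% interval from counting error 2.77 to 99). It did not pass the filter, but was called higher with no filter (adjusted p = 0.00108) and with DESeq2 (adjusted p = 0.0199). Col8a1 and Col10a1 had between 0 and 2 counts in each sample.

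**Figure D3:**
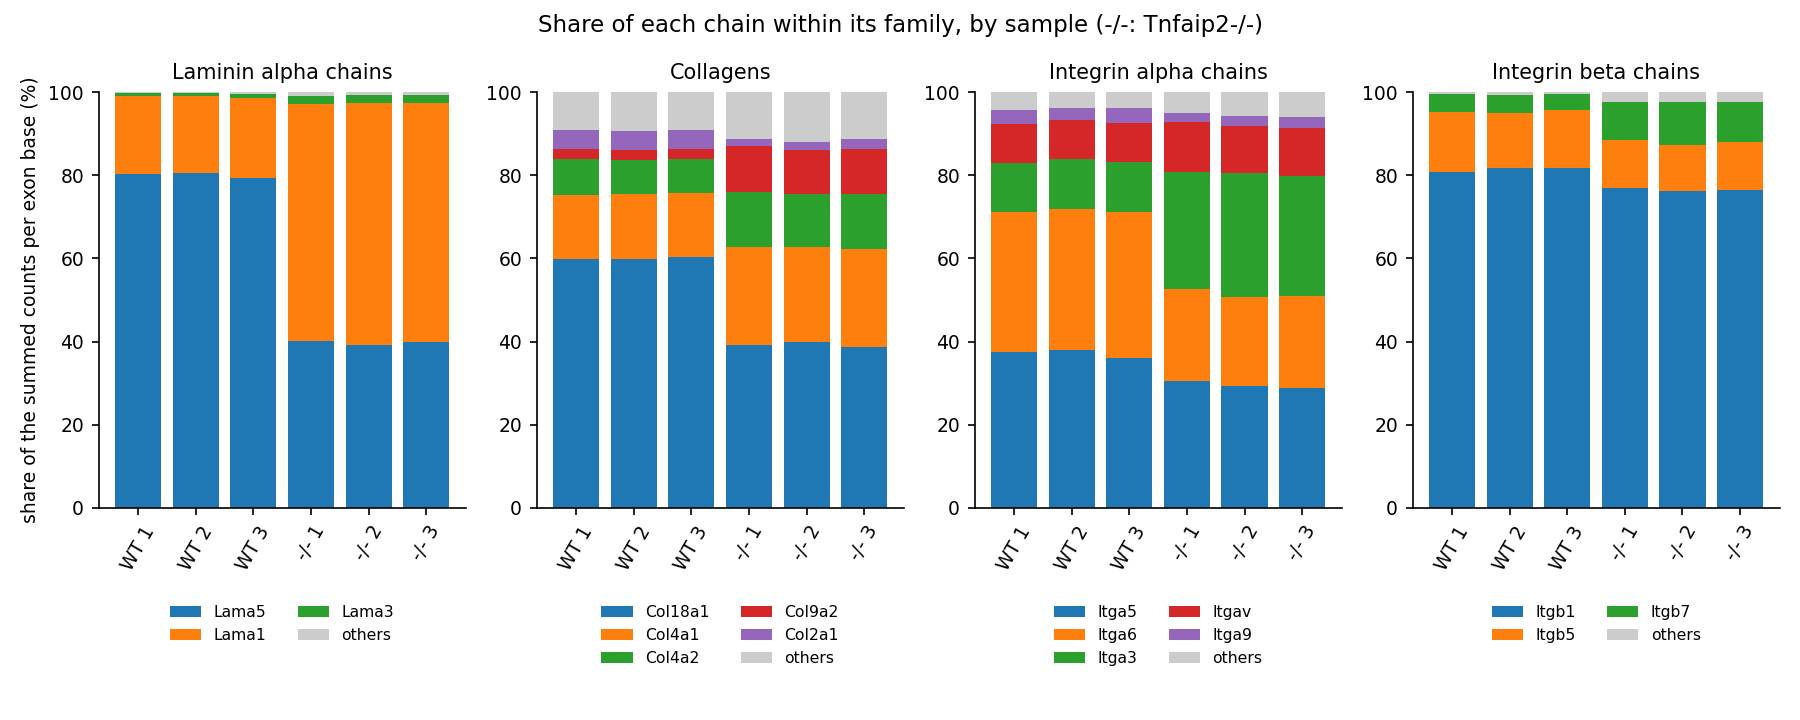
Share of each gene in the summed counts per exon base of its family, in percent, for each of the 6 samples (stacked bars, from 0 to 100%). Lama5 fills 79.3% to 80.5% of the laminin alpha bar in WT EBs and 39.2% to 40.05% in Tnfaip2-/- EBs, Itga3 takes a larger share and Itga5 and Itga6 smaller shares in Tnfaip2-/- EBs, and Itgb1 is the largest beta chain in all samples.

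Integrin beta chains decide with which alpha chains a receptor can form. Itgb1 (ENSMUSG00000025809, chr8:128685654-128733200, forward strand) pairs with most alpha chains that bind laminin, collagen and fibronectin. It had 336, 338 and 339 CPM in WT EBs and 340.1, 335 and 338 CPM in Tnfaip2-/- EBs. The groups overlapped within a few CPM, and Itgb1 did not pass the test, at a log2 fold change of -0.00195 (SE 0.0245, adjusted p = 0.947 in edgeR's quasi-likelihood test). Per kilobase of exon it was the most abundant member in both groups, at 82.8 ± 0.355 CPM in WT EBs and 82.7 ± 0.681 CPM in Tnfaip2-/- EBs (mean ± SD, n = 3). Most beta chains with other partners did change. Itgb5, a partner of Itgav in vitronectin binding, had 52.4, 48.5 and 49.97 CPM in WT EBs and 44.1, 42.2 and 44.0 CPM in Tnfaip2-/- EBs, with a log2 fold change of -0.21 (SE 0.0429, adjusted p = 2.96e-05 in edgeR's quasi-likelihood test). Itgb7, a beta chain of lymphocytes, had 11.8, 12.1 and 10.6 CPM in WT EBs and 27.8, 30.9 and 28.9 CPM in Tnfaip2-/- EBs, with a log2 fold change of 1.34 (SE 0.065, adjusted p = 4.57e-23 in edgeR's quasi-likelihood test). Itgb4, which pairs with Itga6 in hemidesmosomes, had 74, 66 and 59 counts in WT EBs and 265, 242 and 262 counts in Tnfaip2-/- EBs, with a log2 fold change of 1.99 (SE 0.107, adjusted p = 2.51e-21 in edgeR's quasi-likelihood test). Each of these genes separated the groups without overlap, Itgb5 downward and the others upward.

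Itgb3 is the beta chain of the vitronectin receptor and of the platelet fibrinogen receptor. It had 8, 15 and 15 counts in WT EBs and 94, 117 and 115 counts in Tnfaip2-/- EBs, with a log2 fold change of 3.13 (SE 0.202, adjusted p = 2.2e-18 in edgeR's quasi-likelihood test). Itgb8, which with Itgav activates latent TGF-beta, had 11, 19 and 16 counts in WT EBs and 4, 1 and 2 counts in Tnfaip2-/- EBs (log2 fold change -2.62, adjusted p = 4.55e-06 in edgeR's quasi-likelihood test). Itgb3 thus stood higher and Itgb8 lower in each Tnfaip2-/- sample. Itgb2, the leukocyte beta chain, had 0, 0 and 2 counts in WT EBs and 12, 8 and 8 counts in Tnfaip2-/- EBs, under the filter, and its summed counts were 14.4-fold higher in Tnfaip2-/- EBs (95% interval from counting error 3.62 to 124). It was called higher with no filter (adjusted p = 4.92e-05) and with DESeq2 (adjusted p = 0.00513). Itgbl1, Itgb6 and Itgb2l had between 0 and 4 counts in each sample. Despite these changes, Itgb1 took 80.8%, 81.6% and 81.8% of the integrin beta counts per exon base in WT EBs and 76.9%, 76.2% and 76.5% in Tnfaip2-/- EBs. Itgb7 took 4.18%, 4.30% and 3.75% and 9.25%, 10.4% and 9.62%, respectively.

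Among the laminin-binding alpha chains, Itga3 came closer to Itga6 in CPM and passed it per exon base. Itga6 encodes the laminin receptor chain that ESCs express strongly, and had 123, 132 and 129.8 CPM in WT EBs and 90.8, 82.6 and 87.8 CPM in Tnfaip2-/- EBs. Itga3 (ENSMUSG00000001507, chr11:95044474-95076801, reverse strand), a receptor chain for laminins that contain the Lama5 or Lama3 product, had 26.8, 29.0 and 28.4 CPM in WT EBs and 72.9, 72.1 and 72.3 CPM in Tnfaip2-/- EBs. Neither gene overlapped between the groups. Itga6 showed a log2 fold change of -0.56 (SE 0.0346, adjusted p = 5.11e-19 in edgeR's quasi-likelihood test), and Itga3 showed a log2 fold change of 1.37 (SE 0.0429, adjusted p = 2.5e-30 in edgeR's quasi-likelihood test). Within each sample, the ratio of Itga3 to Itga6 per exon base was 0.345, 0.348 and 0.346 in WT EBs and 1.27, 1.38 and 1.30 in Tnfaip2-/- EBs. Per exon base, Itga6 was thus the larger in all WT samples and Itga3 in all Tnfaip2-/- samples, while in CPM Itga6 stayed above Itga3 in every sample (log2 ratio difference 1.92, exact permutation p = 0.1). Of the genes for ligands of Itga3, Lama3 was higher, as Itga3 was, and Lama5 lower in Tnfaip2-/- EBs. Itga7, the laminin receptor chain of muscle, had 23, 14 and 18 counts in WT EBs and 21, 41 and 23 counts in Tnfaip2-/- EBs, which overlapped. Its call (log2 fold change 0.66, adjusted p = 0.0274 in edgeR's quasi-likelihood test) rests on Tnfaip2-/- replicate 2, without which its adjusted p was 0.41 (log2 fold change 0.29). Without WT replicate 2 or 3 and with DESeq2 it was lost too (adjusted p = 0.124, 0.0774 and 0.178; range over the alternatives that test against no change 0.00871 to 0.41).

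Alpha chains that recognise the RGD sequence bind fibronectin and vitronectin. Itga5, the fibronectin receptor chain, had 74.3, 80.5 and 72.8 CPM in WT EBs and 68.3, 61.8 and 62.3 CPM in Tnfaip2-/- EBs, with a log2 fold change of -0.24 (SE 0.0406, adjusted p = 1.2e-06 in edgeR's quasi-likelihood test). Itgav, which pairs with Itgb3, Itgb5 and Itgb8, had 40.8, 43.1 and 41.1 CPM in WT EBs and 58.7, 52.7 and 54.5 CPM in Tnfaip2-/- EBs, with a log2 fold change of 0.41 (SE 0.0439, adjusted p = 2.83e-11 in edgeR's quasi-likelihood test). Fn1 and its receptor chain Itga5 were therefore both lower in every Tnfaip2-/- sample, while Itgav was higher. The ratio of Itgav to Itga5 per exon base was 0.252, 0.246 and 0.259 in WT EBs and 0.394, 0.392 and 0.401 in Tnfaip2-/- EBs, and that of Itga6 to Itga5 was 0.904, 0.894 and 0.9749 and 0.727, 0.731 and 0.77, respectively. Both ratios separated the groups (exact permutation p = 0.1 each). Itga2b, which with Itgb3 forms the platelet fibrinogen receptor, had 21, 17 and 17 counts in WT EBs and 58, 60 and 69 counts in Tnfaip2-/- EBs, with a log2 fold change of 1.80 (SE 0.202, adjusted p = 1.02e-10 in edgeR's quasi-likelihood test). Itga8, a receptor chain of kidney and smooth muscle, had 28, 23 and 29 counts in WT EBs and 38, 29 and 50 counts in Tnfaip2-/- EBs (log2 fold change 0.58, adjusted p = 0.016 in edgeR's quasi-likelihood test). Its lowest Tnfaip2-/- sample lay just above the highest WT sample in CPM, and the call was lost with DESeq2 (adjusted p = 0.143), without WT replicate 2 (adjusted p = 0.0662) and without Tnfaip2-/- replicate 3 (log2 fold change 0.35, adjusted p = 0.206; range over the alternatives that test against no change 0.00397 to 0.206).

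The collagen-binding alpha chains were low in both genotypes. Itga1 had 45, 38 and 28 counts in WT EBs and 5, 6 and 12 counts in Tnfaip2-/- EBs. It was lower in each Tnfaip2-/- sample, with a log2 fold change of -2.22 (SE 0.303, adjusted p = 1.45e-08 in edgeR's quasi-likelihood test). Itga10 had 26, 41 and 33 counts in WT EBs and 27, 52 and 30 counts in Tnfaip2-/- EBs, which overlapped (log2 fold change 0.16, adjusted p = 0.538 in edgeR's quasi-likelihood test). Its counts are uncertain, because 33.5% of its exon bases overlap another gene on the same strand and 30.5% of its 51-base windows also occur in other genes. Itga11 had 4, 4 and 2 counts in WT EBs and 5, 8 and 9 counts in Tnfaip2-/- EBs, and Itga2 had 1 or 2 counts in each sample, so neither was tested. Itga9, which binds tenascin and the EDA segment of fibronectin, had 10.6, 9.96 and 11.2 CPM in WT EBs and 8.10, 7.31 and 8.97 CPM in Tnfaip2-/- EBs, with a log2 fold change of -0.38 (SE 0.0874, adjusted p = 0.000167 in edgeR's quasi-likelihood test). Itga4, its relative on blood and neural crest cells, had 2, 3 and 1 counts in WT EBs and 10, 12 and 9 counts in Tnfaip2-/- EBs, under the filter, and its sum was 5.3-fold higher in Tnfaip2-/- EBs (95% interval from counting error 2.18 to 15.5). It was called higher with no filter (adjusted p = 0.000252) and with DESeq2 (adjusted p = 0.0116).

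The leukocyte alpha chains normally pair with Itgb2 or Itgb7. Itgal had 39, 42 and 35 counts in WT EBs and 85, 67 and 90 counts in Tnfaip2-/- EBs. All Tnfaip2-/- samples were higher, with a log2 fold change of 1.10 (SE 0.163, adjusted p = 9.08e-08 in edgeR's quasi-likelihood test). Itgae, a partner of Itgb7, had 50, 42 and 61 counts in WT EBs and 54, 46 and 51 counts in Tnfaip2-/- EBs, which overlapped (log2 fold change 0.02, adjusted p = 0.929 in edgeR's quasi-likelihood test). Of the partners of Itgb7, Itgae thus did not pass the test, and Itga4 was under the filter and had more counts in each Tnfaip2-/- sample. Itgam had 14, 10 and 8 counts in WT EBs and 6, 6 and 8 counts in Tnfaip2-/- EBs, and 68.7% of its exon bases overlap another gene on the same strand. Itgax and Itgad had 0 or 1 count in each sample.

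**Figure D4:**
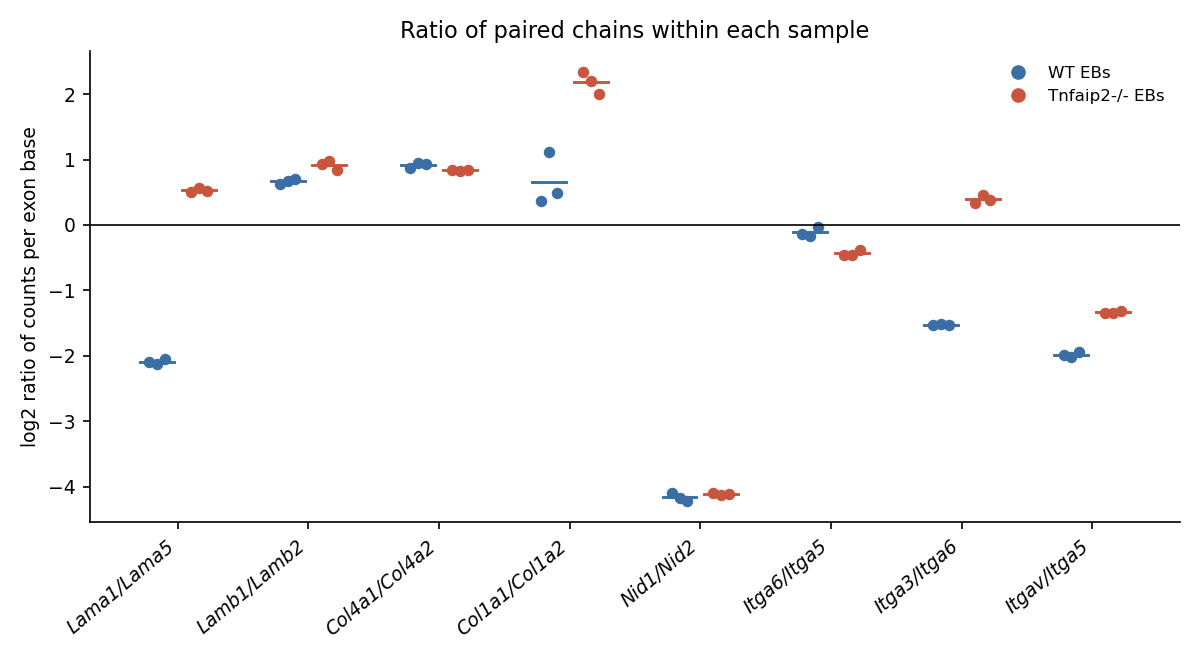
Log2 ratio of counts per exon base for 8 pairs of chains within each sample; each point is a sample and the short line is the mean of 3. The groups are apart for 7 pairs and overlap for Nid1/Nid2, and the ratios Lama1/Lama5 and Itga3/Itga6 cross 0, where both chains are equal.

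Several members are neighbours in the genome. Within 200 kilobases there were 13 pairs of neighbouring members, and in 4 of them both genes were called. Of these, 3 pairs moved the same way, namely Col4a1 with Col4a2, Col4a5 with Col4a6, and Col3a1 with Col5a2, and the pair Col6a4 and Col6a5 moved in opposite directions. At least 1 gene was not tested in the pairs Col9a1 with Col19a1, Col4a3 with Col4a4, Itga1 with Itga2, Itgam with Itgax and Itgax with Itgad. Of all genes tested, 67.7% were called, and the share among pairs of neighbouring genes at large was not computed.

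Making a collagen needs enzymes that fold, modify and crosslink it, and 16 of 29 tested genes of this list were higher and 10 lower (89.7% called, against 67.7% of all genes tested, list median log2 fold change 0.28). P4hb, the disulfide isomerase that also serves as a subunit of prolyl 4-hydroxylase, had 571, 551 and 571 CPM in WT EBs and 804, 812 and 812 CPM in Tnfaip2-/- EBs, with a log2 fold change of 0.52 (SE 0.0234, adjusted p = 3.11e-24 in edgeR's quasi-likelihood test). P4ha2, a catalytic subunit of the same enzyme, had 31.5, 31.2 and 28.5 CPM in WT EBs and 104, 104 and 104 CPM in Tnfaip2-/- EBs, with a log2 fold change of 1.77 (SE 0.0405, adjusted p = 7.97e-36 in edgeR's quasi-likelihood test). Both subunits were higher in each Tnfaip2-/- sample. Sparc, a collagen-binding protein made in quantity by parietal endoderm, had 132, 132 and 139 CPM in WT EBs and 205, 202 and 200.5 CPM in Tnfaip2-/- EBs (log2 fold change 0.59, adjusted p = 7.08e-23 in edgeR's quasi-likelihood test). Tll1, a protease that processes procollagens, had 37, 40 and 34 counts in WT EBs and 7, 15 and 9 counts in Tnfaip2-/- EBs (log2 fold change -1.79, adjusted p = 1.39e-07 in edgeR's quasi-likelihood test). Tll1 therefore fell while the hydroxylase subunits and Sparc rose.

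Inside the cell, integrins connect to actin through an adhesion complex, and 6 of 22 tested genes of that list were higher and 10 lower (72.7% called, near the 67.7% of all genes tested, list median -0.11). Actn4, an actin crosslinker, had 492, 492 and 468 CPM in WT EBs and 391, 399.7 and 409 CPM in Tnfaip2-/- EBs (log2 fold change -0.27, adjusted p = 3.25e-13 in edgeR's quasi-likelihood test). Actn1, its close relative, had 177, 174 and 173 CPM in WT EBs and 161, 161 and 164 CPM in Tnfaip2-/- EBs (log2 fold change -0.11, adjusted p = 0.000763 in edgeR's quasi-likelihood test). Zyx encodes zyxin, a protein of mature adhesions under tension, and was lower in each Tnfaip2-/- sample. It had 75.4, 74.2 and 72.8 CPM in WT EBs and 34.4, 34.7 and 32.5 CPM in Tnfaip2-/- EBs, with a log2 fold change of -1.13 (SE 0.0414, adjusted p = 1.1e-27 in edgeR's quasi-likelihood test). Fermt3, the kindlin of blood cells, had 31, 34 and 29 counts in WT EBs and 77, 67 and 53 counts in Tnfaip2-/- EBs (log2 fold change 1.10, adjusted p = 7.14e-07 in edgeR's quasi-likelihood test). For Ilk, 89.7% of the exon bases overlap other genes on the opposite strand, and it had between 1 and 5 counts in each sample.

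Matrix is also bound by receptors other than integrins, of which 5 of 12 tested were higher and 5 lower (83.3% called, against 67.7% of all genes tested, list median -0.05). Dag1 encodes dystroglycan, a laminin receptor, and had 164, 161 and 157 CPM in WT EBs and 234, 232 and 240.0 CPM in Tnfaip2-/- EBs, with a log2 fold change of 0.55 (SE 0.0276, adjusted p = 2.05e-22 in edgeR's quasi-likelihood test). Sdc4, a heparan sulfate proteoglycan that acts with Itga5 on fibronectin, had 26.8, 26.0 and 27.9 CPM in WT EBs and 181, 187 and 188 CPM in Tnfaip2-/- EBs, with a log2 fold change of 2.78 (SE 0.0375, adjusted p = 4.4e-45 in edgeR's quasi-likelihood test). Cd47, which binds thrombospondin and Itgb3 receptors, had 13.6, 14.0 and 15.0 CPM in WT EBs and 40.2, 38.4 and 39.995 CPM in Tnfaip2-/- EBs (log2 fold change 1.48, adjusted p = 4.26e-27 in edgeR's quasi-likelihood test). These 3 receptors were higher in every Tnfaip2-/- sample. Among proteases and inhibitors of matrix turnover, 9 of 23 tested were higher and 6 lower (65.2% called, near the share of all genes tested, list median -0.02). Serpine2, which encodes an inhibitor of thrombin and plasminogen activators, had 16.6, 16.03 and 15.9 CPM in WT EBs and 53.9, 53.8 and 51.3 CPM in Tnfaip2-/- EBs (log2 fold change 1.71, adjusted p = 2.94e-31 in edgeR's quasi-likelihood test). It was higher in each Tnfaip2-/- sample. Adam10, a membrane protease that sheds surface proteins, had 37.5, 40.3 and 38.6 CPM in WT EBs and 50.7, 54.5 and 51.4 CPM in Tnfaip2-/- EBs (log2 fold change 0.43, adjusted p = 7.06e-12 in edgeR's quasi-likelihood test), and its relative Adam17 did not pass the test (log2 fold change -0.07, adjusted p = 0.142 in edgeR's quasi-likelihood test).

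Markers of the cell types that EBs can hold were counted beside all genes tested, of which 34.0% were higher and 33.7% lower. The part of these cell types in the values of the matrix genes was not tested. Extraembryonic endoderm makes much laminin and collagen IV in the embryo, and of its 14 markers 3 were higher and 8 lower. They summed to 148, 148 and 144 CPM in WT EBs and 129.8, 127 and 128 CPM in Tnfaip2-/- EBs, and Dab2 was the most abundant per kilobase of exon. Cubn and Dab2 made up most of that sum, which hides opposite moves, since Thbd, Sox7 and Sox17 were higher and Afp, Apoa1, Ttr and Foxa2 were among the 8 that were lower. Cubn was called lower (log2 fold change -0.09, adjusted p = 0.0458 in edgeR's quasi-likelihood test), but its groups overlapped in CPM. That call was lost under 7 alternatives that test against no change, DESeq2 among them (adjusted p = 0.142). Apoa1 had 72, 70 and 70 counts in WT EBs and 14, 7 and 13 counts in Tnfaip2-/- EBs (log2 fold change -2.59, adjusted p = 3.24e-14 in edgeR's quasi-likelihood test). Sox7 had 33, 54 and 44 counts in WT EBs and 70, 75 and 54 counts in Tnfaip2-/- EBs (log2 fold change 0.64, adjusted p = 0.00126 in edgeR's quasi-likelihood test). The endoderm regulators Gata4 and Gata6 did not pass the test, at 182, 213 and 205 and 99, 98 and 115 counts in WT EBs and 176, 190 and 203 and 107, 108 and 120 counts in Tnfaip2-/- EBs. Of the 7 mesoderm markers, 1 was higher and 6 lower, with sums of 75.7, 74.0 and 74.8 CPM in WT EBs and 22.01, 19.5 and 23.9 CPM in Tnfaip2-/- EBs, and per kilobase of exon the most abundant was T in WT EBs and Eomes in Tnfaip2-/- EBs. T, a defining mesoderm gene, had 774, 732 and 866 counts in WT EBs and 5, 3 and 1 counts in Tnfaip2-/- EBs. The fibroblast and mesenchymal markers, whose cells make collagens I and III, had 1 higher and 4 lower of 6 tested, and summed to 118, 118 and 113 CPM in WT EBs and 93.0, 92.6 and 100.2 CPM in Tnfaip2-/- EBs. Fbln1 made up most of that sum, while Postn, Lum and Dcn had 0 to 9 counts in each sample. The higher gene was Pdgfrb (log2 fold change 0.36, adjusted p = 0.00706 in edgeR's quasi-likelihood test). Its call was lost with DESeq2 (adjusted p = 0.0961).

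Of the 8 pluripotency markers, 3 were higher and 5 lower, where 34.0% of all genes tested were higher and 33.7% lower. The lists of neuroectoderm, blood and endothelium hold too few tested genes to be set against these shares. The pluripotency markers summed to 2861, 2851 and 2869.8 CPM in WT EBs and 2526, 2527 and 2539 CPM in Tnfaip2-/- EBs. This sum hides opposite moves, since their log2 fold changes ranged from -1.05 to 0.90, with Zfp42 among the higher and Pou5f1 and Lin28a among the lower. Pou5f1 led per kilobase of exon in WT EBs and Utf1 in Tnfaip2-/- EBs. All 4 neuroectoderm markers were lower, with sums of 107, 107 and 99.7 CPM in WT EBs and 46.6, 44.8 and 45.9 CPM in Tnfaip2-/- EBs, and Sox1 led per kilobase of exon in both groups. The 6 tested trophoblast markers had 2 higher and 3 lower, and summed to 86.0, 83.6 and 82.7 CPM in WT EBs and 224, 218 and 224 CPM in Tnfaip2-/- EBs. Tfap2c alone carries this rise: without it the sums were 63.4, 63.1 and 60.7 CPM in WT EBs and 51.4, 48.8 and 52.3 CPM in Tnfaip2-/- EBs. Per kilobase of exon, Krt18 led in WT EBs and Tfap2c in Tnfaip2-/- EBs, while Cdx2 had 42, 37 and 28 counts in WT EBs and 1, 2 and 0 in Tnfaip2-/- EBs. The list of blood and megakaryocyte markers bears on Itga2b, Itgb3, Itgal, Itgb2 and Itgb7. Its 2 tested genes, Laptm5 and Coro1a, were higher, and the list summed to 17.0, 14.8 and 15.1 CPM in WT EBs and 24.5, 22.3 and 21.9 CPM in Tnfaip2-/- EBs, with Coro1a the most abundant per kilobase of exon. The defining genes Ptprc, Cd53, Pf4 and Gp9 had 0 or 1 count in every sample. All 3 tested endothelial markers were higher, with sums of 26.8, 26.1 and 25.9 CPM in WT EBs and 33.7, 37.2 and 39.6 CPM in Tnfaip2-/- EBs and Pecam1 as the most abundant per kilobase of exon, while Cdh5 and Emcn had 0 to 10 counts in each sample.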

How the data were processed

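RNA of 3 WT and 3 Tnfaip2-/- cultures of embryoid bodies was sequenced. The authors mapped reads to GRCm38 with TopHat2 2.1.0, counted unique reads per gene with featureCounts 1.5.0 and deposited raw counts. Of 52636 genes, 30163 had a count. Genes were kept with edgeR's filter (minimum count 10, minimum total 15), scaled by TMM and compared by genotype with edgeR 4.0.16 (robust quasi-likelihood F-test, Benjamini-Hochberg adjusted over 17849 genes, threshold 0.05); standard errors were derived from the test statistic. The workflow was tested on simulated counts. R 4.3.3, limma 3.58.1, DESeq2 1.42.0, Python 3.11.15, pandas 2.3.3, numpy 2.4.6, scipy 1.17.1 and matplotlib 3.10.9 were used. Replicates are cultures of 1 line each, so p-values measure the spread between cultures.

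Samples held 22987433, 22489903 and 23804489 counts (WT) and 22480962, 21765931 and 21986960 counts (Tnfaip2-/-); TMM factors ranged from 0.9868 to 1.012 and the biological coefficient of variation was 0.0215. The variance between 2 libraries was 1.46 to 2.25 times that of sampling noise within a genotype and 64.2 to 68.9 times across genotypes. Symbols and exon lengths came from GENCODE M21, a later release than the annotation the authors used (Ensembl 90), and 147 identifiers had no symbol in it. Promoter sequences came from a RefSeq table of GRCm38.p6. Levels of different genes were compared in CPM per kilobase of exon or in counts per exon base.

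Members and lists were chosen with earlier results of these data known. Values in every sample were given for the 3 members of each role group with the highest mean CPM and the 2 with the largest change among those called with a mean of at least 1 CPM, for both chains of each ratio, and for the 2 genes with the highest mean CPM and the 2 most changed genes of the lists on collagen folding, adhesion complex, other receptors and turnover. Other members were added to account for each role group, and other marker genes were chosen after their values were seen. Alternatives were other size factors, no filter, a minimum count of 50, a replicate block, a test against a fold change of 1.5, DESeq2 and leaving out each sample. Chain ratios were compared by exact permutation of the 6 samples. No per-sample column was left out. Some single genes of the families and lists are counted in the totals but not reported here.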

Additional observations from a re-analysis of the deposited data

How the results depend on the processing

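Of 780 values of single members under alternatives, 708 kept direction and side of the threshold, 51 kept direction only and lost the threshold, 8 gained it and 13 changed sign. Of the 53 called members, 45 kept their call under every alternative that tested them, other than the test against a fold change of 1.5; a minimum count of 50 left 43 members to test. Counts of calls are given as higher and lower in Tnfaip2-/- EBs. Depth limits the 23 members under the filter, most of which were called under no alternative; Col14a1 (lower), Col28a1, Itga4 and Itgb2 (higher) passed with no filter and with DESeq2. Effects of the edit and of other differences between the 2 lines cannot be separated, and protein was not analysed here.

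Asked for a change beyond 1.5-fold, 30 members passed in place of 53 (22 higher in place of 34, 8 lower in place of 19), and 2798 genes in place of 12084 (1615 higher in place of 6076, 1183 lower in place of 6008), a loss that follows from the stricter hypothesis. Lower collagens then numbered 5 in place of 9, laminin chains 4 higher in place of 7 and 1 lower in place of 2, lower integrins 2 in place of 6, and other glycoproteins 1 higher in place of 4 and 0 lower in place of 2. Under the same test, collagen folding genes numbered 7 higher in place of 16 and 4 lower in place of 10, adhesion complex genes 2 higher in place of 6 and 1 lower in place of 10, other receptors 0 lower in place of 5, and turnover genes 4 higher in place of 9. RGD-binding alpha chains numbered 1 higher in place of 3 and 0 lower in place of 1, collagen VI 1 higher in place of 2 and 0 lower in place of 1, integrin alpha 4 and 9 0 lower in place of 1, beta chains 1 lower in place of 2, laminin-binding alpha chains 1 higher in place of 2 and 0 lower in place of 1, and transmembrane collagens 0 lower in place of 1.

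With a minimum count of 50, which tests fewer genes, 37 members passed, 11 of them lower in place of 19. Lower collagens were 5 in place of 9, laminin chains 4 higher and 1 lower, lower glycoproteins 1 in place of 2, lower basement membrane collagens 1 in place of 3, higher collagen VI genes 0 in place of 2, lower collagen-binding alpha chains 0 in place of 1, lower fibrillar collagens 2 in place of 4, lower beta chains 1 in place of 2, and higher laminin-binding alpha chains 1 in place of 2. With no filter, 56 members passed, with 1 lower laminin chain in place of 2, 1 lower fibril-associated collagen, 1 higher gene of integrin alpha 4 and 9 and 1 higher other collagen, in place of 0 each. With DESeq2, 50 members passed, with 1 lower laminin chain, 1 lower glycoprotein, 1 higher collagen VI gene, 1 lower fibril-associated collagen, 1 higher gene of integrin alpha 4 and 9, 1 higher laminin-binding alpha chain, 1 higher other collagen and 0 lower transmembrane collagens; the cause was not tested. DESeq2's size factors in edgeR left 53 members.

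The replicate block gave 52 members (35 higher, 17 lower) and 11841 genes, with 1 lower laminin chain and 1 lower glycoprotein. Deviations from the group means of same-numbered samples correlated at -0.121, -0.116 and -0.0909, and those of other pairs at 0.00449 to 0.118. No sample thus correlated best with its own number. No label states that the numbers pair the samples, and correlations this small cannot decide it.

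Leaving out 1 sample gave 50 to 53 members (32 to 36 higher, 17 to 18 lower) and 11537 to 11744 genes (5633 to 5852 higher, 5754 to 5917 lower). Collagens ranged from 13 to 17 higher and 8 to 10 lower, laminin chains from 6 to 7 and 1 to 2, integrins from 8 to 10 higher, and glycoproteins from 1 to 2 lower. RGD-binding alpha chains ranged from 2 to 3 higher, collagen VI from 1 to 3 higher, fibril-associated collagens from 3 to 4 higher, fibrillar collagens from 4 to 5 lower, integrin alpha 4 and 9 from 0 to 1 higher, laminin-binding alpha chains from 1 to 2 higher, and transmembrane collagens from 1 to 2 higher and 0 to 1 lower. Collagen folding genes ranged from 14 to 17 higher and 9 to 10 lower, adhesion complex genes from 6 to 8 and 9 to 11, and turnover genes from 6 to 7 lower. On the log2 scale, the ratio differences ranged from 2.61 to 2.64 (Lama1/Lama5), 0.22 to 0.29 (Lamb1/Lamb2), -0.11 to -0.07 (Col4a1/Col4a2), 1.38 to 1.75 (Col1a1/Col1a2), 0.02 to 0.08 (Nid1/Nid2), -0.34 to -0.28 (Itga6/Itga5), 1.89 to 1.95 (Itga3/Itga6) and 0.63 to 0.67 (Itgav/Itga5).

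The sign changed only in members that passed no test either way, and the cause was not tested. Leaving out 1 sample moved the log2 fold change of Col6a2 between -0.147 (without Tnfaip2-/- replicate 3) and 0.267, that of Itga10 between -0.199 (without Tnfaip2-/- replicate 2) and 0.348, that of Col16a1 between -0.185 (without WT replicate 3) and 0.254, with -0.00247 without Tnfaip2-/- replicate 1, and that of Col1a1 between -0.186 and 0.158 (without WT replicate 2), with 0.134 without Tnfaip2-/- replicate 1. Itgb1 ranged from -0.0147 to 0.00512 (without Tnfaip2-/- replicate 2) and had 0.00206 with the minimum count of 50. Itgae ranged from -0.0939 (without WT replicate 2) to 0.136, with -0.0224 without Tnfaip2-/- replicate 1, -0.00349 without Tnfaip2-/- replicate 3 and -0.000357 with no filter. Col8a2 ranged from -0.199 to 0.0631 (without WT replicate 1).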

Other observations

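Some genes of the further lists changed more than most members. Plod2 encodes a lysyl hydroxylase that prepares collagen crosslinks, and had 74.0, 74.5 and 75.0 CPM in WT EBs and 193, 187 and 190.3 CPM in Tnfaip2-/- EBs (log2 fold change 1.35, adjusted p = 7.2e-36 in edgeR's quasi-likelihood test). Pcolce, an enhancer of procollagen cleavage, had 21.3, 20.1 and 19.3 CPM in WT EBs and 6.51, 6.89 and 6.36 CPM in Tnfaip2-/- EBs (log2 fold change -1.62, adjusted p = 3.16e-23 in edgeR's quasi-likelihood test). Mmp14 encodes a membrane protease that cleaves collagens, and had 39.1, 37.6 and 37.5 CPM in WT EBs and 13.4, 14.9 and 15.1 CPM in Tnfaip2-/- EBs (log2 fold change -1.40, adjusted p = 7.33e-26 in edgeR's quasi-likelihood test). Mcam, a laminin-binding adhesion molecule, had 41.6, 44.3 and 44.1 CPM in WT EBs and 119.9, 118 and 116 CPM in Tnfaip2-/- EBs (log2 fold change 1.45, adjusted p = 5.53e-34 in edgeR's quasi-likelihood test). No sample of one genotype reached the range of the other for any of these genes, which were chosen after their values were seen.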
